A study of Mus musculus with 7 samples.

Results

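The 10 genes examined here encode the hepatocyte machinery that makes, conjugates, moves and senses bile acids: *Cyp7a1*, *Cyp8b1*, *Cyp27a1*, *Cyp7b1*, *Slc27a5*, *Baat*, *Slc10a1*, *Abcb11*, *Nr1h4* and *Nr0b2*. They were chosen by name, each through the Ensembl identifier that the GENCODE mouse annotation pairs with its symbol, out of 14851 genes with values in liver RNA taken 8 h after carbon tetrachloride (CCl4). All 10 were found and all 10 were among the 12545 genes tested, which had a mean of at least 10 normalised counts over the livers. A normalised count is the number of reads on a gene after division by a factor that evens out sequencing depth between libraries.

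Hepatocytes make bile acids from cholesterol by a classic route that opens with *Cyp7a1* and by an alternative route that runs through *Cyp27a1* and *Cyp7b1*, and they then join the products to taurine before pumping them into bile. Most of these bile acids return from the gut in portal blood and are taken up again, so the hepatocyte also measures them. The bile acid receptor FXR (*Nr1h4*) switches on SHP (*Nr0b2*), a repressor whose known targets include *Cyp7a1* and *Cyp8b1*, and this loop is the textbook brake on synthesis.

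The 4 livers termed FL came from mice of the genotype Albumin-Cre; p53 FL/FL and the 3 termed WT from Albumin-Cre; p53 WT/WT, with 1 liver per mouse. All were C57BL/6J males aged about 70 days on normal chow, and all carried the Albumin-Cre transgene, whose promoter is active in hepatocytes. In FL livers this transgene deleted p53 (*Trp53*), and which cell types besides hepatocytes carried the deletion was not examined here. Each mouse received 1 morning injection of CCl4, a solvent that hepatocytes turn into reactive radicals (intraperitoneal, at 1 mL/kg from a 20% stock made up in corn oil). Some mice of both genotypes also bore the Rosa26 LSL-tdRFP reporter, and which ones was not given in the sources used here. The source names of the 3 WT livers share 1 prefix and those of the FL livers carry 2 others, so genotype and whatever that prefix stands for cannot be told apart. No untreated livers were analysed here, and the comparison therefore describes genotypes after injury and not the response to CCl4.

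The libraries held an estimated 11.9 to 19.5 M reads on genes, and the FL libraries had 18.4% of the WT level of *Trp53*, with values of 131, 130, 217 and 110 against 876, 688 and 831. Hepatocyte markers were present in all 7 livers, with summed levels of the 8 markers between 1208506 and 1838805 normalised counts. WT replicate 2 and FL replicate 3 stood apart from the other 5 livers on the first principal component, which held 66.7% of the variance (scores of 82.0 and 29.2 against -25.6 to -19.1 in the others). The fold changes of the named genes below are therefore also given without these 2 livers. In bulk liver, fewer cells of a type and less RNA per cell cannot be told apart.

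The sequence just before the start of 3 members is shown first. *Nr0b2* and *Cyp8b1* differed several-fold between livers of 1 genotype while the highest liver for *Abcb11* exceeded the lowest 1.36-fold. Any part of these sequences in the values was not tested. RefSeq (GRCm38.p6) gave a promoter entry for 6 of the 10 members, and none was found for *Cyp7a1*, *Cyp7b1*, *Baat* and *Slc27a5*. The 250 bases before the annotated start are printed in the direction of transcription, at chr4:133553126-133553375 (plus strand) for *Nr0b2*, chr9:121916306-121916555 (minus strand) for *Cyp8b1* and chr2:69342617-69342866 (minus strand) for *Abcb11*. Capitals mark matches to 3 short elements: TCAAGG, the core of sites bound by LRH-1 (*Nr5a2*), in *Nr0b2*; CAAAGTCCA, an element of the kind bound by HNF4 (*Hnf4a*), in *Cyp8b1*; and AGGTCA, the hexamer that many nuclear receptors recognise, in *Abcb11*, where it lies on the other strand and reads TGACCT.
Nr0b2: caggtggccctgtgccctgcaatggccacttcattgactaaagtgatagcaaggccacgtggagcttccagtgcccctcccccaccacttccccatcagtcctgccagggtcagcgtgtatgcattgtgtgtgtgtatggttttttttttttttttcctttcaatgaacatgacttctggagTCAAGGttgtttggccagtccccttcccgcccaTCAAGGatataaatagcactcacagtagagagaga
Cyp8b1: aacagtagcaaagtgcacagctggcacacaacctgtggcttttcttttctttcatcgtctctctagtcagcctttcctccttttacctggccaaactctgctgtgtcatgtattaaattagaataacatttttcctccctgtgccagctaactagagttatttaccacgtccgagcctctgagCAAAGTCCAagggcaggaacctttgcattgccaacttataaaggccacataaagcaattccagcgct
Abcb11: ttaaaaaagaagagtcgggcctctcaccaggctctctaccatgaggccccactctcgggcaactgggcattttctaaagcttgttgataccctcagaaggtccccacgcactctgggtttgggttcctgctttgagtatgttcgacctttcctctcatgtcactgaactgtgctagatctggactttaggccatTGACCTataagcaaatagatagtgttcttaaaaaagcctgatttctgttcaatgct
The *Nr0b2* window held TCAAGG at 68 and at 35 bases before the start. The *Cyp8b1* window held CAAAGTCCA at 67 bases before the start, and the *Abcb11* window held the hexamer at 56. Of 32851 mouse promoter windows of this length, searched on both strands, 12.5% held at least 1 TCAAGG, 0.384% held CAAAGTCCA and 14.0% held AGGTCA. CAAAGTCCA has 9 letters and the others have 6, so a lower share follows from its length. TCAAGG and CAAAGTCCA were added as elements after the sequences had been seen, so finding them here was not a test. Single AGGTCA hexamers also lay in the window of *Nr1h4* and in that of 1 of 2 annotated starts of *Slc10a1*. Both of these windows lie within the annotated gene, before a start inside it and not at its outer end. For *Cyp27a1*, whose window held no match, the bases after the window did not match the start of an annotated transcript. Exact matches to the paired arrangements AGGTCANTGACCT and AGGTCANAGGTCA, which contain AGGTCA and so overlap with it, were in none of the 7 member windows. They were in 0.00609% and 0.0335% of all windows. Matches with a changed letter were not searched. In *Abcb11* the marked hexamer ends the stretch aggccatTGACCT, which is 1 letter from the first arrangement. This likeness was seen by reading the sequence, and the share of windows with such a near match was not computed. A match in letters is a description of the sequence and not evidence of binding in these livers.

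Between FL and WT livers, 0 of the 10 genes passed the test across all genes (limma with Benjamini-Hochberg adjustment, adjusted p = 0.999 for each), where 2 of 12545 genes passed (0.0159%). At an unadjusted limma p under 0.05 there were 2 members, *Nr1h4* and *Baat*, both higher in FL, beside 3.2% of all genes in either direction and 1.59% in that direction. The same 2 genes were the only members whose genotypes did not overlap in value, beside 4.76% of all genes (2.77% with FL higher). 7 members had higher and 3 had lower fitted values in FL, with a median log2 fold change of 0.28 against 0.01 over all genes tested. This lean depended on WT replicate 2. Without that liver the log2 fold changes were 0.003 for *Slc27a5*, 0.01 for *Cyp8b1*, 0.02 for *Slc10a1* and 0.06 for *Cyp27a1*. They were 0.19 for *Cyp7a1*, 0.28 for *Nr1h4* and 0.38 for *Baat*, but -0.69 for *Cyp7b1*, -0.11 for *Nr0b2* and -0.21 for *Abcb11*. The share of all genes higher in FL was not computed. The members differed widely in how even they were: over the 7 livers the highest exceeded the lowest 14.2-fold for *Cyp7b1* and 11.6-fold for *Nr0b2*, but 1.28-fold for *Nr1h4*.

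**Figure D1:**
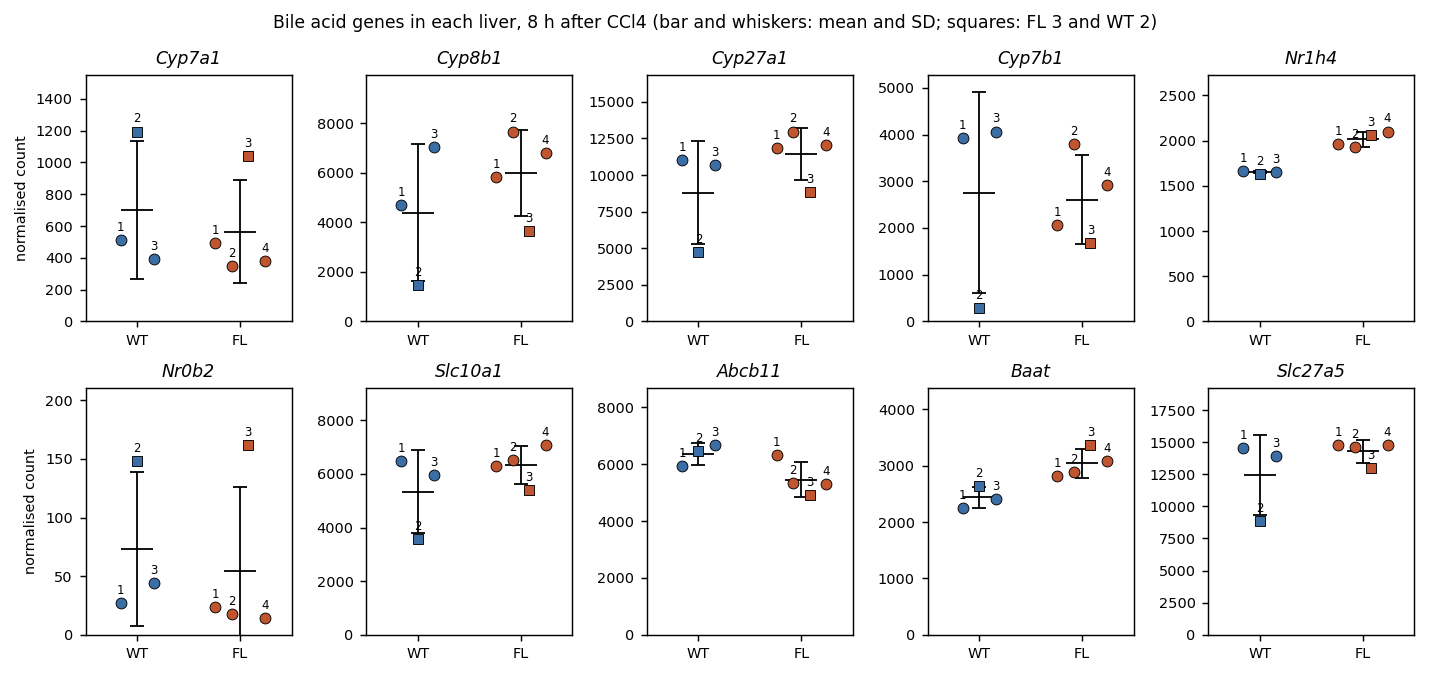
Normalised counts (y axis) of the 10 bile acid genes in each WT (blue, n = 3) and FL (orange, n = 4) liver; digits give the replicate, squares are WT replicate 2 and FL replicate 3, and bars with whiskers are mean and SD (the lower whisker of *Nr0b2* in FL runs below 0 and is hidden). *Nr1h4* and *Baat* show separate genotypes, while in *Cyp7a1* and *Nr0b2* the 2 squares lie above, and in *Cyp8b1*, *Cyp27a1* and *Cyp7b1* below, the other livers of their genotype.

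*Cyp7a1*, the rate-limiting enzyme of the classic route (chromosome 4, 6265612 to 6275633, GRCm38), had 491, 348, 1041 and 378 normalised counts in FL and 514, 1194 and 390 in WT, each in the order of the replicate numbers, which holds for all such values below. The genotypes overlapped, and the 2 high livers were FL replicate 3, at 2.57 times the mean of the other FL livers, and WT replicate 2, at 2.64 times that of the other WT livers. Its log2 fold change of FL over WT was -0.29 (SE 0.48, limma adjusted p = 0.999, exact two-sided permutation p = 0.514). Its 95% interval ran from 0.383-fold to 1.76-fold. The sign depended on a single liver, since without WT replicate 2 the log2 difference was 0.19, while without both outlying livers it was -0.16.

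*Cyp8b1*, the sterol 12-alpha-hydroxylase that directs synthesis to cholic acid, had 5835, 7660, 3665 and 6798 normalised counts in FL and 4684, 1482 and 7016 in WT. Here FL replicate 3 and WT replicate 2 were the lowest livers of their genotypes, the latter at 0.253 times the mean of the other WT livers. Its fitted log2 fold change was 0.66 (SE 0.51, limma adjusted p = 0.999). It came to 0.01 without WT replicate 2 and to 0.23 without both outlying livers. Its promoter, shown above, carried the HNF4 element, and *Hnf4a* itself, a regulator of many hepatocyte genes, had 14891, 15799, 13355 and 14486 normalised counts in FL and 12516, 9547 and 13827 in WT. For *Hnf4a* too both outlying livers were the lowest of their genotype, as they were for 28.8% of all genes, and any part of *Hnf4a* in the *Cyp8b1* values was not tested.

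*Cyp27a1*, the mitochondrial sterol 27-hydroxylase that opens the alternative route, had 11856, 12974, 8841 and 12037 normalised counts in FL against 11011, 4721 and 10676 in WT. WT replicate 2 was again the low liver, at 0.435 times the mean of the other WT livers, and the genotypes overlapped. The log2 fold change of 0.46 (SE 0.30, limma adjusted p = 0.999) came to 0.06 without that liver and to 0.18 without both. *Cyp7b1*, the oxysterol 7-alpha-hydroxylase that follows *Cyp27a1*, had 2057, 3789, 1669 and 2922 normalised counts in FL and 3926, 287 and 4064 in WT. WT replicate 2 had 0.0718 times the mean *Cyp7b1* level of the other WT livers, the widest departure of any member. With all livers the fitted log2 fold change was 0.58 (SE 0.88, limma adjusted p = 0.999), although the mean of the normalised counts was 2609 in FL and 2759 in WT, a log2 ratio of -0.081 in the opposite direction. The sign turned without WT replicate 2 (log2 difference -0.69) and without both outlying livers (-0.49, limma unadjusted p = 0.0365, adjusted p = 0.474). In the latter case 3 FL livers at 2057 to 3789 lay below 2 WT livers at 3926 and 4064. The share of all genes separated in these remaining livers was not computed.

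The conjugating enzymes differed in behaviour. *Slc27a5*, the bile acid-CoA ligase that activates bile acids for conjugation, had 14748, 14618, 12976 and 14791 normalised counts in FL and 14579, 8842 and 13888 in WT. The 5 livers other than FL replicate 3 and WT replicate 2 lay between 13888 and 14791, and its log2 fold change was 0.23 (SE 0.19, limma adjusted p = 0.999) with all livers and 0.05 without those 2. *Baat*, which joins the activated bile acid to taurine or glycine, had 2814, 2888, 3371 and 3086 normalised counts in FL and 2258, 2644 and 2407 in WT. Every FL liver exceeded every WT liver, and neither outlying liver was the low one. FL exceeded WT by 0.32 on the log2 scale (SE 0.11), 1.25-fold with a 95% interval of 1.05 to 1.48, at a limma unadjusted p = 0.0194 and adjusted p = 0.999. The exact permutation p was 0.0286, the smallest that 35 splits of the livers can give. It held at 0.33 without both outlying livers (limma unadjusted p = 0.00309, adjusted p = 0.263).

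Of the transporters, neither passed the test. *Slc10a1* (NTCP), which takes up bile acids from blood, had 6308, 6534, 5386 and 7085 normalised counts in FL and 6475, 3588 and 5946 in WT, again with FL replicate 3 and WT replicate 2 lowest in their genotypes. Its log2 fold change was 0.28 (SE 0.21, limma adjusted p = 0.999), and 0.10 without those 2 livers. *Abcb11* (BSEP), the pump that exports bile acids into bile, had 6322, 5322, 4913 and 5286 normalised counts in FL and 5928, 6465 and 6682 in WT. In contrast to the uptake carrier, WT replicate 2 was not low for *Abcb11*. FL replicate 1 alone overlapped with the WT livers, and the log2 fold change was -0.22 (SE 0.12, limma unadjusted p = 0.0962, adjusted p = 0.999, exact permutation p = 0.0857). It was -0.16 without the 2 outlying livers. The annotation places 2 genes on the opposite strand across *Abcb11*, and the strand setting of the counting is not given in the sources used here. Of the 36-base stretches of *Slc10a1*, 2.14% also occur in *Gm42556*, while the other 9 members share none with another gene.

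Of the regulators, *Nr1h4* (FXR), the bile acid receptor, was the steadiest member within a genotype, with 1965, 1932, 2058 and 2101 normalised counts in FL and 1664, 1636 and 1657 in WT. The 3 WT livers, WT replicate 2 included, lay at nearly the same level, and every FL liver lay above them. The log2 fold change was 0.28 (SE 0.09), 1.22-fold with a 95% interval of 1.06 to 1.40, at a limma unadjusted p = 0.0115 and adjusted p = 0.999, with the smallest possible exact permutation p of 0.0286. It was 0.27 without both outlying livers (limma unadjusted p = 0.00877, adjusted p = 0.341).

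*Nr0b2* (SHP), the repressor that FXR induces, was scarce and uneven, with 24, 18, 162 and 14 normalised counts in FL and 27, 148 and 44 in WT. FL replicate 3 had 8.68 times the mean of the other FL livers and WT replicate 2 had 4.17 times that of the other WT livers, so the 2 livers with the highest *Nr0b2* were also those with the highest *Cyp7a1*. Its log2 difference was -0.80 (SE 0.90, limma adjusted p = 0.999, exact permutation p = 0.457). Without FL replicate 3 it was -1.57 and without WT replicate 2 it was -0.11. Without both, FL livers at 14 to 24 lay below WT livers at 27 and 44, with a log2 difference of -0.88 (limma unadjusted p = 0.0265, adjusted p = 0.453). Separation is easily met with so few livers, and the share of all genes that show it without these 2 was not computed.

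The hepatocyte markers leaned to the same side as *Baat* and *Nr1h4* without passing the test. Of the 8, 7 had higher fitted values in FL, with a median log2 fold change of 0.32, but 0 passed after adjustment, 1 (*Ttr*) had an unadjusted limma p under 0.05 and was the only one whose genotypes did not overlap. Their summed levels ran from 1408500 to 1838805 normalised counts in FL and from 1208506 to 1475717 in WT. After division of each liver by the geometric mean of these markers, which lowers the log2 fold change of the median gene by 0.24, the log2 fold changes were 0.04 for *Nr1h4* (limma unadjusted p = 0.785) and 0.08 for *Baat* (limma unadjusted p = 0.593), and for both genes the genotypes overlapped. On that scale *Abcb11* was the member with the lowest p, at a log2 fold change of -0.47 (limma unadjusted p = 0.0462, adjusted p = 0.556). It was the only 1 of the 10 members with an unadjusted limma p under 0.05, beside 1033 of 12545 genes.

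**Figure D2:**
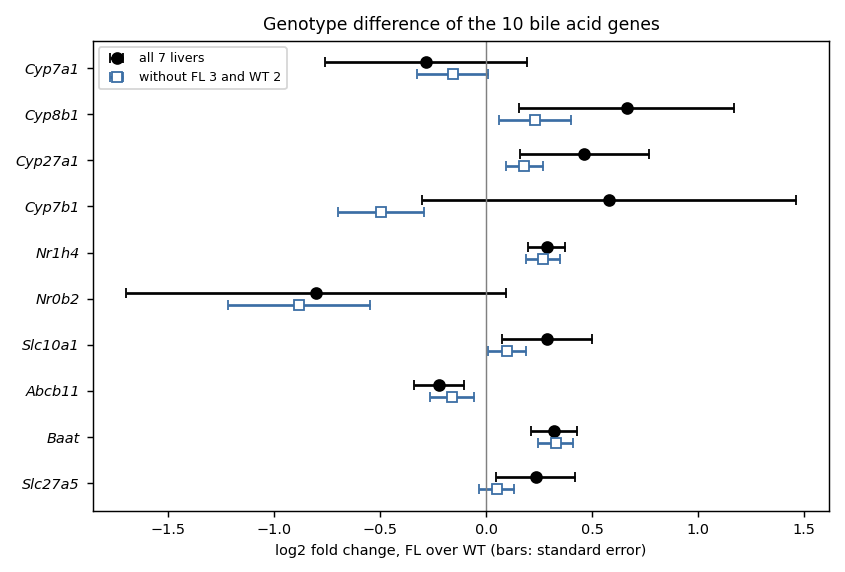
Log2 fold change of FL over WT (x axis) for each bile acid gene with its standard error, from limma on all 7 livers (black) and on 5 livers without FL replicate 3 and WT replicate 2 (blue squares). *Nr1h4* and *Baat* kept their values of about 0.28 and 0.32, the standard errors of all 10 genes became smaller, and *Cyp7b1* changed sign from 0.58 to -0.49.

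Leaving out both outlying livers gave 4 members with an unadjusted limma p under 0.05, *Nr1h4* and *Baat* higher in FL and *Cyp7b1* and *Nr0b2* lower, beside 9.74% of 12325 genes. None of the members passed after adjustment, where 6 genes did (0.0487%). A loss of 1 liver from each genotype left 3 FL and 2 WT livers.

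The 2 outlying livers shared a pattern across the members. In both, *Cyp7a1*, *Nr0b2* and *Baat* were the highest of their genotype, and *Cyp8b1*, *Cyp27a1*, *Cyp7b1*, *Slc10a1* and *Slc27a5* were the lowest. That both livers were at the same extreme for 8 members is to be read beside the 57.4% of all genes for which it also held. WT replicate 2 differed over 2-fold from each of the other WT livers for 5 members, *Cyp7a1*, *Cyp8b1*, *Cyp27a1*, *Cyp7b1* and *Nr0b2*, beside 15.9% of all genes. FL replicate 3 did so against its own genotype for 2, *Cyp7a1* and *Nr0b2*, beside 3.44%. Against the median of the 7 livers, *Nr0b2* was 2.54 higher on the log2 scale in FL replicate 3 and 2.41 higher in WT replicate 2, and *Cyp7a1* was 1.08 and 1.28 higher. By the same measure *Cyp7b1* stood at -0.81 and -3.34 and *Cyp8b1* at -0.67 and -1.98.

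**Figure D3:**
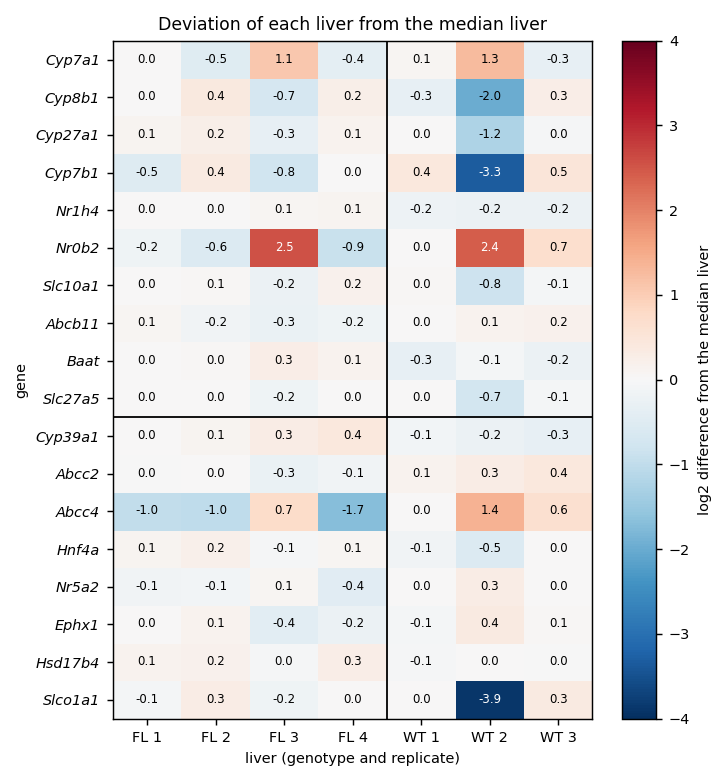
Log2 difference of each liver (columns) from the median of the 7 livers for the bile acid genes (upper block) and for 8 further pathway genes chosen by the smallest unadjusted p (lower block); red is higher and blue lower. The columns of FL replicate 3 and WT replicate 2 hold the strongest colours, such as 2.54 and 2.41 for *Nr0b2* and -3.34 for *Cyp7b1* in WT replicate 2.

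Marker lists for other features of the liver moved in these 2 livers too, and their part in the values above was not tested. Pericentral hepatocyte markers, the genes of cells around the central vein, averaged 1.69 (WT replicate 2) and 0.94 (FL replicate 3) below the median liver on the log2 scale, over the 6 of 8 listed genes that were tested, with summed levels of 12636 and 21340 normalised counts against 45271 to 69763 in the other livers. Markers of male liver averaged -2.98 and -0.57, and the summed level of the 8 genes ran from 21497 to 41906 in FL and from 10859 to 34238 in WT. Among these, *Elovl3* had 87 and *Hsd3b5* had 2 normalised counts in WT replicate 2, against 2738 to 3372 and 633 to 779 in the other WT livers. Proliferation genes averaged 3.21 and 1.35 above the median over the 5 of 6 genes tested, with sums of 83 to 284 in FL and 98 to 1078 in WT. Stellate cell markers averaged 1.63 and 0.47 (sums of 935 to 1350 in FL and 920 to 3811 in WT) and macrophage markers 0.81 and 0.18 (5989 to 6716 and 5327 to 10430).

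For the remaining lists, mean log2 differences from the median liver in WT replicate 2 and FL replicate 3 were 0.55 and 0.62 for periportal markers (sums of 80778 to 149950 in FL and 87438 to 139662 in WT), 0.26 and 0.14 for endothelial markers (2608 to 3035 and 2383 to 3334) and -0.27 and 0.45 for clock genes (6157 to 10247 and 6722 to 8766). Neutrophil markers were near absent, with sums of 19 to 63 in FL and 43 to 77 in WT, and *Ly6g* was not in the table. Cholangiocyte markers, which label the bile duct cells, averaged 0.39 and -1.24, with sums of 976 to 1942 in FL and 1365 to 1691 in WT. These markers did not share a direction between genotypes, as 2 of the 6 tested had higher and 4 had lower fitted values in FL. *Epcam* (log2 fold change -0.70, limma unadjusted p = 0.139) and *Spp1* (-0.28, limma unadjusted p = 0.502) were lower with overlap. *Cftr*, too low to be tested, had 0, 1, 0 and 0 normalised counts in FL and 5, 3 and 3 in WT. The keratin *Krt19* had 21, 11, 6 and 17 normalised counts in FL and 128, 106 and 26 in WT. Its log2 fold change was -2.41 (limma unadjusted p = 0.00464, adjusted p = 0.999). *Krt7* was likewise lower without overlap, at -1.78 (limma unadjusted p = 0.0205, adjusted p = 0.999). *Sox9*, a transcription factor of bile duct cells, had 763, 596, 297 and 555 in FL and 261, 249 and 204 in WT, a log2 fold change of 1.14 (limma unadjusted p = 0.0049, adjusted p = 0.999, or 0.0270 without the outlying livers), and *Slc10a2* had one of 0.25 (limma unadjusted p = 0.344). None of the 7 markers was at 0 in every liver.

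Ratios within a liver, which do not depend on the scaling of that liver, compared mRNA levels between members. Enzyme activity and bile acids were not part of these data. Per kb of exon, *Cyp7b1* exceeded *Cyp7a1* in 6 of 7 livers, 8.07-, 21.0-, 3.09- and 14.9-fold in the FL livers in order, 14.7-fold in WT replicate 1 and 20.1-fold in WT replicate 3. In WT replicate 2 the order was inverted and *Cyp7a1* exceeded *Cyp7b1* 2.16-fold. The next ratios are of normalised counts without length and serve to compare livers, not genes. *Cyp8b1* over *Cyp7b1* was steady in FL, at log2 ratios of 1.50, 1.02, 1.13 and 1.22, FL replicate 3 included, and ran from 0.25 to 2.37 in WT. *Abcb11* over *Slc10a1*, the export pump over the uptake carrier, had log2 ratios of 0.00, -0.30, -0.13 and -0.42 in FL and -0.13, 0.85 and 0.17 in WT, with the 1 high value in WT replicate 2.

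Per length of exon, and so comparable between genes, the members spanned 2 orders of magnitude. Mean levels over the 7 livers were 5534 normalised counts per kb for *Slc27a5* (SD 882) and 4741 for *Cyp27a1* (SD 1281), followed by *Cyp8b1* at 2721 (SD 1121) and *Slc10a1* at 2684 (SD 522). *Baat* at 1433 (SD 198), *Cyp7b1* at 1234 (SD 650), *Abcb11* at 1136 (SD 132) and *Nr1h4* at 807 (SD 87.4) formed a middle group. *Cyp7a1* at 149 (SD 83.0) and *Nr0b2* at 55.1 (SD 56.6) were lowest, so the enzyme that limits the classic route and the repressor were the scarcest mRNAs of the 10 genes. *Slc27a5* and *Cyp27a1*, *Cyp8b1* and *Slc10a1*, and the run of *Baat*, *Cyp7b1* and *Abcb11* did not differ from their neighbours by more than the larger SD of each pair, and *Cyp8b1* and *Slc10a1* changed places when the longest transcript was used as the length (*Slc10a1* then had 3375). The gap between *Nr1h4* and *Cyp7a1* exceeded the spread of both.

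**Figure D4:**
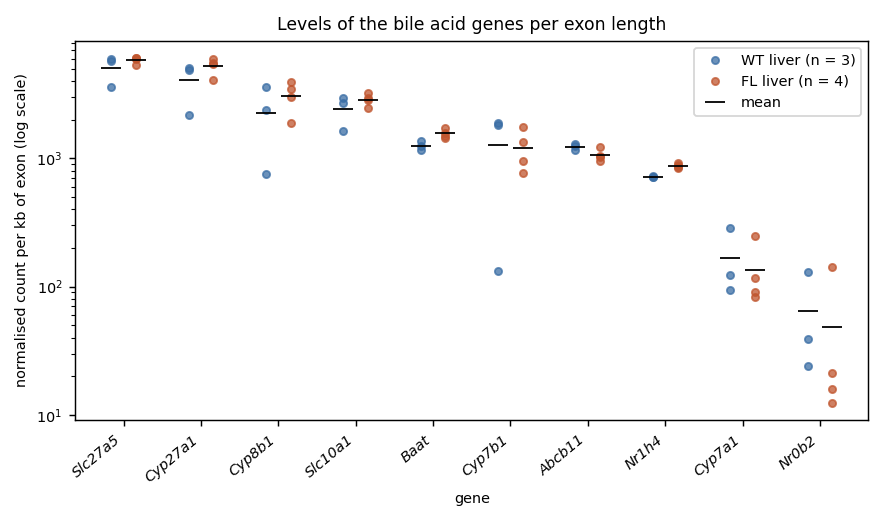
Normalised counts per kb of annotated exon (log axis) for the bile acid genes in WT (blue, n = 3) and FL (orange, n = 4) livers, ordered by the mean over 7 livers, with horizontal marks for genotype means. *Slc27a5* and *Cyp27a1* were highest at means of 5534 and 4741, and *Cyp7a1* and *Nr0b2* lowest at 149 and 55.1.

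The other genes of the pathway were taken from a list by role of 33 genes, of which 31 were in the table and 29 were tested. None passed the limma test after adjustment, and 1 higher and 2 lower genes had an unadjusted p under 0.05, where 1.59% and 1.6% of all genes did. Fitted values were higher in FL for 15 and lower for 14, with a median log2 fold change of 0.00. Of 11 side chain and alternative synthesis genes tested, 8 were higher and 3 lower, and of 6 further regulators 5 and 1. Of 4 basolateral uptake carriers, 1 was higher and 3 lower, both basolateral efflux pumps were lower, and of 6 canalicular transport genes 1 was higher and 5 lower. Several of these differences were near 0, such as log2 fold changes of 0.008 for *Fgfr4*, -0.04 for *Slco1b2* and -0.05 for *Abcb4*. The efflux pump *Abcc3* was at -0.25 with overlapping genotypes (limma unadjusted p = 0.279). These counts were not tested, and the share of all genes in each direction was not computed. *Gpbar1* and *Slc51a* were not in the table, and *Ch25h* and *Slc51b* were too low to be tested.

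*Cyp39a1*, which hydroxylates 24-hydroxycholesterol for bile acid synthesis, had 994, 1079, 1227 and 1330 normalised counts in FL and 914, 843 and 785 in WT. The genotypes did not overlap, and the log2 difference was 0.44 (SE 0.13, limma unadjusted p = 0.00891, adjusted p = 0.999, exact permutation p = 0.0571). It was 0.41 without the 2 outlying livers and 0.20 after scaling to hepatocyte markers (limma unadjusted p = 0.209). *Scp2*, the peroxisomal thiolase and sterol carrier of side chain shortening, was the other pathway gene with higher and non-overlapping values, at 24961, 26158, 25580 and 26450 in FL and 24417, 20676 and 24525 in WT, and was named after its values were seen. Its log2 fold change was 0.16 (limma unadjusted p = 0.231, adjusted p = 0.999), or 0.079 without the 2 outlying livers. *Hsd17b4*, the bifunctional enzyme of the same peroxisomal pathway, had a log2 fold change of 0.16 and overlapping genotypes (limma unadjusted p = 0.192), and one of 0.23 without those livers (limma unadjusted p = 0.0216, adjusted p = 0.424).

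*Abcc2* (MRP2), which pumps bilirubin conjugates and divalent bile acids across the canalicular membrane beside *Abcb11*, had 4444, 4484, 3715 and 4104 normalised counts in FL and 4945, 5509 and 6020 in WT. All 4 FL values were below the lowest WT value, as for 1.98% of all genes, and the log2 fold change was -0.39 (SE 0.12, limma unadjusted p = 0.0108, adjusted p = 0.999, exact permutation p = 0.0286). It was -0.33 without the 2 outlying livers and -0.63 after scaling to hepatocyte markers. *Abcc4* (MRP4), a pump that returns bile acids to blood, had 225, 220, 742 and 137 normalised counts in FL and 445, 1168 and 698 in WT. FL replicate 3 and WT replicate 2 were each the highest of their genotype, and the FL liver with 742 was the only one to overlap with WT. The log2 fold change was -1.42 (SE 0.56, limma unadjusted p = 0.0364, adjusted p = 0.999, exact permutation p = 0.114). It was -1.55 without both outlying livers (limma unadjusted p = 0.000112, adjusted p = 0.0985) and -1.06 without WT replicate 2 alone (limma unadjusted p = 0.0980).

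*Slco1a1*, an uptake carrier enriched in male liver, had 2302, 2975, 2142 and 2411 normalised counts in FL and 2420, 160 and 3068 in WT. Its low value in WT replicate 2 was at 0.0583 times the mean of the other WT livers, close to the 0.0718 of *Cyp7b1* in that liver, and its log2 fold change of 1.20 (SE 0.92, limma adjusted p = 0.999) became -0.16 without it and -0.098 without both outlying livers. *Nr5a2* (LRH-1), the receptor through which SHP represses *Cyp7a1*, had 371, 374, 429 and 299 normalised counts in FL and 407, 497 and 411 in WT, a log2 fold change of -0.26 (SE 0.15, limma unadjusted p = 0.126), or -0.24 without the outlying livers. *Ephx1*, an epoxide hydrolase also described as a bile acid carrier, had a log2 fold change of -0.25 (limma unadjusted p = 0.179), which came to -0.13 without WT replicate 2 and to -0.029 without both outlying livers (limma unadjusted p = 0.803). *Hnf4a* had one of 0.31 (SE 0.15, limma unadjusted p = 0.0786), or 0.19 without the outlying livers.

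The 2 members that varied most over the 7 livers were compared with every tested gene by the mean absolute difference, in log2, of their departures from the median liver, a measure that WT replicate 2 and FL replicate 3 dominate. Genes near to *Nr0b2* (SD 1.39 in log2) were *Flvcr2* at 0.36, *Acmsd* at 0.37, *Racgap1* at 0.38 and *Fblim1* at 0.39. *Acmsd*, an enzyme of tryptophan breakdown, had 138, 134, 1041 and 226 normalised counts in FL and 176, 1058 and 382 in WT. The genes nearest to *Cyp7b1* (SD 1.35) were *Slc1a2* at 0.24, *Zic5* at 0.25, *Cyp2c40* at 0.29, *Sphk1* at 0.30 and *Ces4a* at 0.32. *Slc1a2*, a glutamate transporter of pericentral hepatocytes, had 458, 551, 278 and 460 in FL and 604, 24 and 616 in WT, so that WT replicate 2 was the low liver for it as for *Cyp7b1*.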

How the data were processed

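Liver RNA of 4 FL and 3 WT mice was sequenced as stranded polyadenylated libraries with paired reads of 36 bases. The authors aligned reads with TopHat2 (version 2.0.13) and Bowtie2 (version 2.2.6.0), counted them per gene with HTSeq (the submitters' processing notes also name featureCounts) and divided them by DESeq2 size factors. The mouse genome and annotation were named GRCh38.75, which carries the name of the human build and was taken here to mean release 75 of Ensembl for mouse (GRCm38). The deposited values are normalised counts that the authors rounded to whole numbers, treated as a score and not as raw counts, so no count model was run. Of 14988 lines for 14851 genes, the 120 repeated identifiers had identical values and were kept once. Symbols came from GENCODE vM21 (12 genes had none). The depth was estimated from the spacing of low values, 1 read being worth 0.812 to 1.38 normalised counts.

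Genotypes were compared with limma (version 3.58.1, under R version 4.3.3), whose empirical Bayes step allowed for a mean-variance trend. The model used log2 values after adding 1 and took in the 12545 genes whose mean reached 10. Benjamini-Hochberg adjusted p-values were read at a threshold of 0.05; fold changes on this scale understate those of low genes. For single genes an exact permutation test, two-sided, ran over all 35 ways of splitting the livers. Simulated data with known changes were used to check the limma script. Every member, *Trp53*, the 8 other pathway genes with the smallest unadjusted p and the 5 genes nearest to each of the 2 most variable members are named, except 1 gene that is not reported here. The members and all lists were chosen with earlier results of these data known, and TCAAGG and CAAAGTCCA were added as elements after the sequences had been seen. Replicates are separate mice. Alternatives were other pseudocounts (0.5 and 5), filters, scalings, variance models, a replicate block, array weights and leaving out livers. Levels per kb used the union of annotated exons. Other steps ran in Python 3.11.15 with pandas 2.3.3, NumPy 2.4.6 and Matplotlib 3.10.9.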

Additional observations from a re-analysis of the deposited data

Results flagged for a closer look

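In the 4 FL livers, 3 of 19 genes examined had 1 liver far from the rest by Dixon's criterion, and in all 3 it was FL replicate 3. For independent groups chance meets the criterion in about 1 of 20, but these 19 genes share the same livers. The share of all genes that met it was not computed. FL replicate 3 also stood over 2-fold from each other FL liver for 3.44% of all genes. *Nr0b2* had 162 normalised counts there and 14 to 24 in the other FL livers. *Abcc4* had 742 there and 137 to 225 in the others. *Slc27a5* had 12976 there and 14618 to 14791 in the others. The WT group of 3 was too small for the criterion. The part of the marker lists that also moved in this liver was not tested.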

How the results depend on the processing

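The count of bile acid members and of other pathway genes past the adjusted threshold was 0 under all 20 alternatives. The members with an unadjusted limma p under 0.05 numbered 0 to 4, beside 110 to 1512 over all genes. Over all genes, the count of 2 became 0 with a pseudocount of 5, with a mean of at least 50, with at least 10 in every liver, without the trend and with the replicate block, 1 with quantile normalisation, 5 with array weights, 6 without FL replicate 3 and WT replicate 2, and 0 to 5 when each liver was left out. *Trp53* kept its direction, at a log2 fold change of -2.44 with a pseudocount of 5 (adjusted p = 0.0501), -2.47 with a mean of at least 50 (adjusted p = 0.0666), with at least 10 in every liver (adjusted p = 0.0643) and without the trend (adjusted p = 0.103), -2.68 to -2.35 when each liver was left out, and -2.78 without FL replicate 3 and WT replicate 2. Its adjusted p lay between 2.58e-05 and 1 over the alternatives.

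Signs changed for *Cyp7a1* (-0.63 to 0.19 when each liver was left out, 0.19 without WT replicate 2), for *Cyp7b1* (-0.43 with array weights, -0.49 without both outlying livers, -0.69 without WT replicate 2, -0.081 as the log2 ratio of the group means of all livers; range -0.69 to 1.22), for *Slco1a1* (-0.043 with array weights, -0.098 without both outlying livers, -0.16 without WT replicate 2; range -0.16 to 1.97), and with hepatocyte-marker scaling for *Slc27a5* (-0.0099) and *Hsd17b4* (-0.086). The causes of these changes were not tested. With the replicate number as a block, in which FL replicate 4 has no partner, *Trp53* was at -2.35 (adjusted p = 1), no member had an unadjusted p under 0.05, and 0.877% of genes did. The numbers were not taken as pairs, since the deviations of same-numbered livers correlated at 0.44, -0.48 and -0.66 across genes. Arms of 2 WT livers, rounding and the scarcity of *Nr0b2* limit the precision.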
